A study of Chlorocebus aethiops with 30 samples.

Results

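Cells returned to culture for 24 h after trypsin were compared with cells returned for 24 h after TrypLE, in all 340 genes of the authors' table of group means. No gene was selected by its 24 h values here, but the authors had chosen the 340 genes by a rule not given in the sources used here. A name was available for 199 of the 340, of which 49 carry a placeholder name beginning with LOC. A further 7 have no name in the authors' table, and 134 could be matched to no name.

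The cells were of the Vero line, epithelial cells of the African green monkey kidney that are widely used for growing viruses, and the labels call all samples wild type. Trypsin at 37 °C or TrypLE (a recombinant enzyme sold as a substitute for trypsin) at 37 °C was used to detach the cells. Detached cells went back to the incubator and were collected 24 h later with an enzyme-free solution. The control was collected with an enzyme-free solution at 37 °C and had met neither enzyme, so that all 3 groups shared the way of harvest. Each group has 3 samples in the labels, which are described as biological replicates. For 24 h, 8 h and the control, only 1 mean per group was analysed, with no error, so the 24 h differences are described without a test. The depth of these libraries is not given in the sources used here. None of the 10 epithelial markers, 8 fibroblast markers, 5 immune markers or 4 endothelial markers chosen for a check of the cell type is among the named genes, so the label could not be checked.

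Trypsin and TrypLE both cut proteins after lysine or arginine and so release cells from the matrix and from each other. Attachment and growth factor signals run through the ERK branch of the MAP kinases, which switches on immediate early transcription factors such as EGR1 and FOSB. ERK also induces its own inhibitors, the DUSP phosphatases and the Sprouty proteins. Ribosomal protein and respiratory chain genes are short and highly expressed genes of growth and energy supply. Metallothioneins are small proteins that bind zinc and copper and are induced by metals.

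At 24 h the 19 immediate early and MAP kinase feedback genes were all lower after trypsin than after TrypLE, 14 of them by at least 1.5-fold. All 4 metallothionein genes were higher by at least 1.5-fold. Ribosomal protein and oxidative phosphorylation genes lay mostly on the higher side, with 7 of 28 and 6 of 16 past 1.5-fold, as did 41 of the 102 genes under 1000 bases. Values are the authors' means on an FPKM scale, which is a level per kilobase of gene and per library size. Each difference is log2(trypsin mean + 1) minus log2(TrypLE mean + 1), so that a positive difference means a higher level after trypsin, and the added 1 understates the change of genes at low levels. Over all 340 genes the differences ran from -2.07 to 2.14, with a median of 0.03 and quartiles at -0.28 and 0.34. A difference of at least 1.5-fold was reached by 52 genes that were higher after trypsin (15.3%) and 29 that were lower (8.53%). Names, and so list members, come only from the 206 genes in the authors' table of the 0 h comparison, of which 46 were higher (22.3%) and 19 lower (9.22%) past 1.5-fold. Of these 206, 134 lay above 0. A difference of at least 2-fold was reached by 18 higher genes (5.29%) and 9 lower genes (2.65%). Just inside the 1.5-fold limit lay ATP5MK at 0.60 and MCL1 at -0.60, and just outside it POLR2F at 0.57 and HES1 at -0.58.

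**Figure D1:**
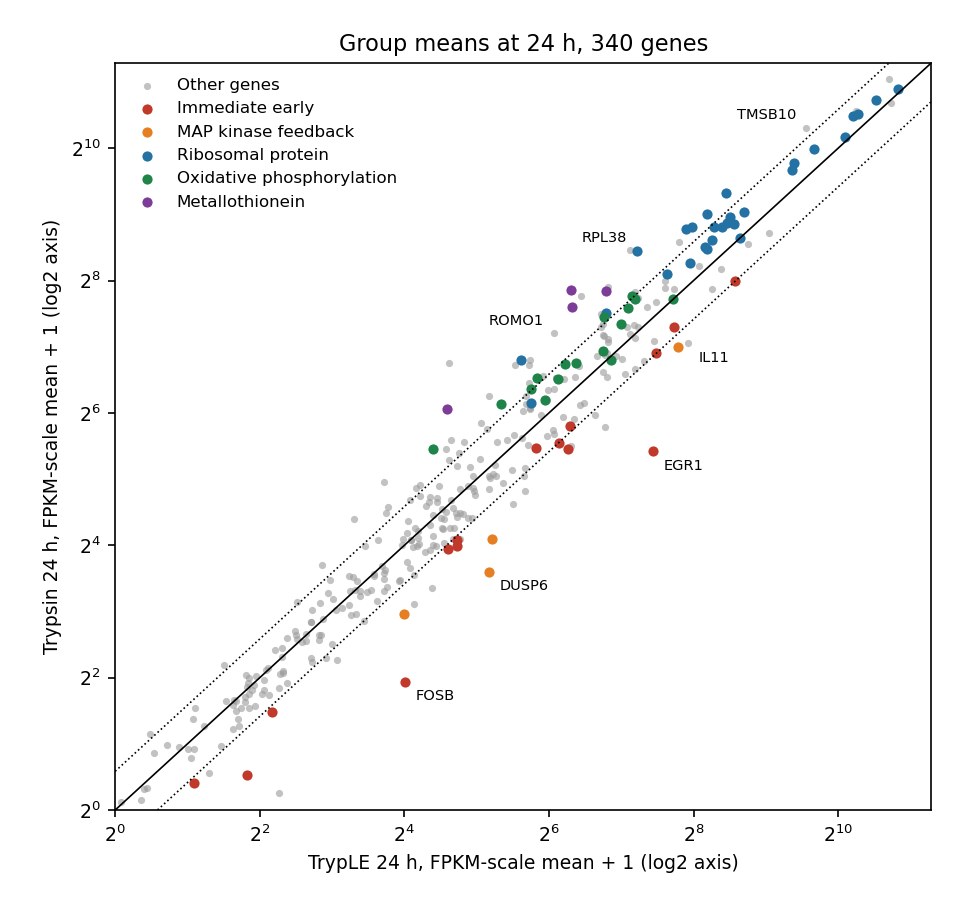
Each point is 1 of the 340 genes, with the TrypLE 24 h mean on the x axis and the trypsin 24 h mean on the y axis (FPKM scale plus 1, log2 axes). The solid line marks equal levels and the dotted lines 1.5-fold. Immediate early and MAP kinase feedback genes lie below the solid line and the 4 metallothionein genes lie above the upper dotted line.

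Single libraries were analysed at 0 h alone, for 206 of the genes, and they give a yardstick for the missing error. For each gene the range between the 3 replicate libraries was taken in each enzyme group, on log2(normalized count + 1), and the larger range was kept. This range had a median of 0.45 and a 90th percentile of 0.87. The 24 h difference of 87 of the 206 genes was larger than the gene's own range at 0 h. Of the 65 genes in this set that passed 1.5-fold at 24 h, 54 had a difference beyond their range and 11 did not. The 206 genes were listed by the authors for a difference at 0 h, so their spread may not stand for that of other genes or of 24 h.

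Of the 43 immediate early genes on the list used here, 15 are among the 340 genes, and all 15 were lower after trypsin. Of these, 10 passed 1.5-fold, or 66.7% against 8.53% of all genes, and their median difference was -0.66 against 0.03 for all genes. With a pseudocount of 5 in place of 1, 4 of the 15 passed 1.5-fold, since EGR2, NR4A1, EGR3, CSRNP1, KLF6 and MCL1 came under it. All 15 differences were larger than the replicate range of the same gene at 0 h. In bulk RNA, fewer expressing cells and less RNA per cell cannot be told apart.

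FOSB, a subunit of the AP-1 transcription factor, had a mean of 2.83 after trypsin and 15.1 after TrypLE, against 14.5 in the control. Its difference of -2.07 was the lowest of the 340. EGR1, a zinc finger factor induced within minutes by growth factors, had 42.0 after trypsin, 172 after TrypLE and 59.0 in the control, a difference of -2.01. For EGR1 the TrypLE mean was the one farther from the control, while for FOSB it was the trypsin mean. EGR2 and EGR3, of the same family, were at low levels, with 0.449 and 0.329 after trypsin and 2.53 and 1.12 after TrypLE. Among single libraries at 0 h, EGR1 stood at 5516, 7116 and 5850 normalized counts after trypsin and at 6837, 8428 and 8467 after TrypLE, a replicate range of 0.37.

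The stress-responsive factor ATF3 had 43.0 after trypsin, 75.9 after TrypLE and 70.2 in the control. MAFF, a small MAF protein that pairs with other leucine zipper factors, had 14.9, 25.6 and 26.9 in the same order, and KLF6, a growth-restraining zinc finger factor, had 15.9, 25.5 and 32.7. In these 3 genes the TrypLE mean was nearer to the control than the trypsin mean was. NR4A1, an orphan nuclear receptor, had 1.78, 3.51 and 2.28, CSRNP1, a nuclear protein of the early response, had 14.4, 23.4 and 19.7, and MCL1, which protects cells from apoptosis, had 45.9, 69.8 and 64.0. The other 5 members stayed under 1.5-fold. Among them HES1, a repressor downstream of Notch, had 253 after trypsin, 379 after TrypLE and 438 in the control. PPP1R15A, which restores translation after stress, showed the smallest difference of the list, at -0.36.

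All 4 members of the MAP kinase feedback list that are among the 340 genes were lower after trypsin past 1.5-fold, with a median difference of -1.07. Of all genes 8.53% were lower past 1.5-fold, and of the 206 genes with a length 9.22% were. DUSP6, a phosphatase that acts on ERK in the cytoplasm, had 11.1 after trypsin and 35.1 after TrypLE, against 38.5 in the control. DUSP5, its nuclear counterpart, had 16.1, 36.0 and 28.7. SPRY2, a Sprouty inhibitor of receptor tyrosine kinase signals, had 6.79 and 14.9, and the control had 15.0. For DUSP6 and SPRY2 the TrypLE mean was within 1.5-fold of the control and the trypsin mean was lower than it by over 2-fold. DUSP1, which acts on several MAP kinases, had 127 and 220, both below the control at 373. Each of these 4 differences was larger than the replicate range of its gene at 0 h, which for DUSP6 was 0.26.

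The order of the enzymes in most of these genes was the opposite at 8 h. At 0 h all 19 immediate early and feedback genes were lower after trypsin, as were 224 of the 340 genes and 168 of the 206. At 8 h, 16 of the 19 were higher after trypsin, as were 197 of the 340 genes and 136 of the 206, and 7 of them by at least 1.5-fold, against 9.12% of all genes. At 24 h all 19 were lower after trypsin again. EGR1 had 21.0 after trypsin and 5.78 after TrypLE at 8 h, before the 42.0 and 172 of 24 h. ATF3 had 25.7 and 11.9 at 8 h, and DUSP5 12.6 and 4.98. Between 8 and 24 h the TrypLE means of EGR1, ATF3 and DUSP5 went up more than the trypsin means. DUSP6 kept 1 order throughout, with 8.89 after trypsin and 19.8 after TrypLE at 8 h. The samples of the 3 times are separate, but all 19 genes are in the authors' 0 h table, which lists genes for a difference at 0 h.

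**Figure D2:**
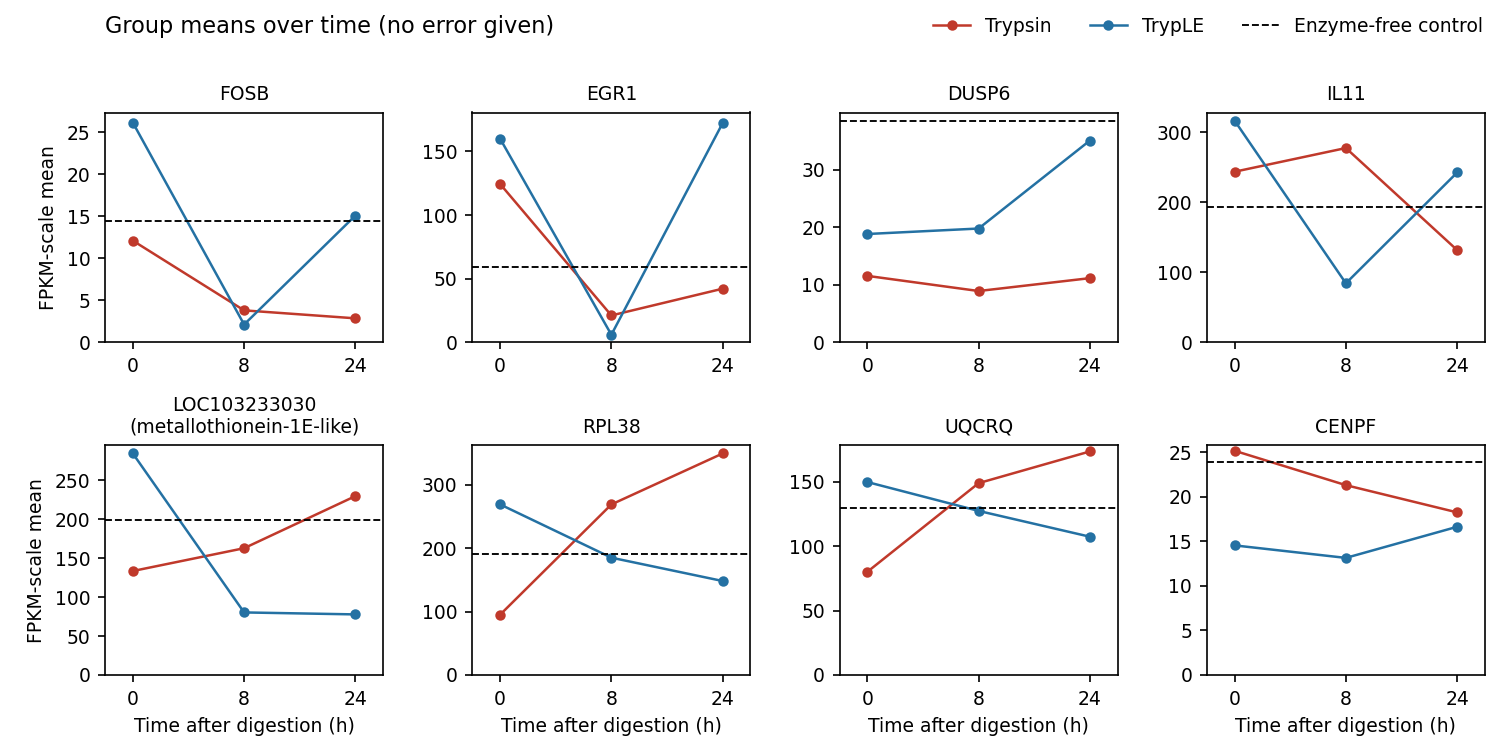
Group means on the FPKM scale (y axis) at 0, 8 and 24 h (x axis, evenly spaced) for trypsin in red and TrypLE in blue, with the enzyme-free control as a dashed line. No error is given for these means. The lines of EGR1, FOSB and IL11 cross between 8 and 24 h, while RPL38 and UQCRQ are lower after trypsin at 0 h and higher at 8 and 24 h.

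Other signalling genes were lower after trypsin as well. IL11, a cytokine of the IL6 family made by epithelial cells, had 131 after trypsin and 242 after TrypLE at 24 h, with 193 in the control. At 8 h its order was the opposite, with 277 after trypsin and 84.0 after TrypLE. GDF15, a secreted stress factor of the TGF-beta family, had 54.1 and 109, with 118 in the control. It was the 1 member of the 4 growth factor and receptor genes past 1.5-fold. All 4 members of the inflammatory and NF-kappaB list were lower after trypsin, with a median of -0.44, but IL11 alone passed 1.5-fold. NFKBIZ, a nuclear regulator of NF-kappaB targets, had 15.1 and 20.1, the smallest difference of that list at -0.39.

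Targets of YAP and serum response factor, which report cell spreading and actin tension, gave 5 genes, all lower after trypsin. Of these, 1 passed 1.5-fold, or 20% against 8.53% of all genes and 9.22% of the 206, and the median was -0.34. Of the 5, 3 had a difference beyond the replicate range at 0 h. F3 and AMOTL2, at -0.08 and -0.34, did not. CCN2, a matricellular protein, had 7.70 after trypsin, 16.5 after TrypLE and 7.48 in the control, a difference of -1.01. CCN1, of the same family, had 422 and 525, with 251 in the control, a difference of -0.31. F3, the tissue factor that starts coagulation, had 2.28 and 2.46. CCN2 was thus close to the control after trypsin and above it after TrypLE, while CCN1 was above it after both. CCN1, CCN2 and THBS1, a matrix glycoprotein with 11.7 and 15.9, are also the 3 members of the extracellular matrix list. Of these CCN2 alone passed 1.5-fold, or 33.3% against 8.53% of all genes, so 1 gene makes the count of both lists. PFKFB3, which drives glycolysis, was the 1 member of the glycolysis and hypoxia list and differed by -0.47. The p53 and apoptosis list held MCL1 and PLK2, a kinase of the early response, which differed by -0.60 and -0.43.

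Of the 19 named genes that were lower after trypsin past 1.5-fold, 14 are on the immediate early or feedback lists, and CCN2, GDF15 and IL11 were described above. The other two are ZBTB6, a zinc finger protein, and LOC103219498, which the authors describe as an RNA 3′-terminal phosphate cyclase-like protein. ZBTB6 had 44.2 after trypsin and 78.1 after TrypLE, with 87.0 in the control, and its difference of -0.81 was smaller than its replicate range at 0 h of 0.89. The other 2 C2H2 zinc finger genes, ZNF217 and ZNF707, differed by -0.22 and -0.04. Stress response genes were split. PPP1R15A and DDIT3 were lower after trypsin, DDIT4 and CEBPB were slightly higher, and 0 of the 4 passed 1.5-fold. CEBPB, a transcription factor of inflammation and differentiation, had 145 and 138.

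The genes with the largest differences on the higher side included metallothioneins. The authors describe 4 genes as metallothioneins, all under placeholder names, and all 4 were higher after trypsin past 1.5-fold, against 15.3% of all genes. This group was formed from the descriptions after the values were seen. LOC103233030, metallothionein-1E-like, had 230 after trypsin and 77.9 after TrypLE, against 199 in the control, a difference of 1.55. LOC103233043, metallothionein-1, had 65.9 and 23.1, with 89.4 in the control. LOC103233031, metallothionein-1E, had 194 and 78.5, with 167 in the control, and LOC103233029, metallothionein-2, had 228 and 109, with 411. In all 4 genes the TrypLE mean was far below the control. Metallothionein genes resemble each other and reads may have been shared between them, so their sum is also given. It was 717 after trypsin, 289 after TrypLE and 866 in the control, a 2.48-fold difference between the enzymes. At 8 h the sum was 694 after trypsin and 446 after TrypLE, and at 0 h it was 585 and 1080. The sum after TrypLE was thus the highest of the 7 groups at 0 h and the lowest at 24 h. All 4 metallothionein differences at 24 h were larger than the replicate range of the gene at 0 h.

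Ribosomal protein genes were mostly higher after trypsin at 24 h. Of 28 with a symbol, 27 lay above 0 and 7 passed 1.5-fold, or 25% against 15.3% of all genes, with a median difference of 0.37. The share is close to the 22.3% of the 206 genes, of which 134 lay above 0. RPL38, of the large subunit, had 349 after trypsin and 148 after TrypLE, with 191 in the control. RPS29, of the small subunit, had 111 and 48.2, with 56.2 in the control. For both genes the trypsin mean was above the control and the TrypLE mean below it. RPL37, RPL37A and RPL36 had differences of 0.82, 0.88 and 0.82, and RPS28 and RPS21 had 0.88 and 0.73. At the other end RPL34 had 397 after trypsin and 399 after TrypLE, so the list did not move as 1 block. Of the 28, 8 had a difference beyond the replicate range at 0 h. RPS29 was not among them, with a difference of 1.19 and a range of 1.23. Among single libraries at 0 h, RPL38 stood at 830, 606 and 725 normalized counts after trypsin and at 2780, 1805 and 1518 after TrypLE, with TrypLE replicate 1 the highest. This was not particular to RPL38. TrypLE replicate 1 was the highest in most genes under 1000 bases that the naming rule gave, such as RPL37, RPS29, UQCRH and LOC103230449. It was not the highest in POLR2L, UQCR10 and LOC119619012. Trypsin replicate 1 was likewise the highest trypsin library in most of these short genes, such as RPL38, RPL37 and LOC103230449. Among the exceptions were RPS29 and UQCRH.

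Another 17 genes that the authors describe as ribosomal proteins carry placeholder names. On the higher side 7 of them passed 1.5-fold, or 41.2% against 15.3% of all genes and 22.3% of the 206. All 17 are under 1000 bases, and 41 of the 102 genes of that length passed it, which is a like share. Of the 17, 3 had a difference beyond the replicate range at 0 h. They were grouped from the descriptions after the values were seen. These loci can share reads with the parent gene or with other copies, and their values are uncertain for that reason. LOC103230449, 60S ribosomal protein L35-like, had 107 after trypsin and 23.5 after TrypLE, with 34.8 in the control. This was the highest difference of the 340, at 2.14, whereas RPL35 itself had 1463 and 1240, a difference of 0.24. LOC119619012, described as 40S ribosomal protein S27, had 351 and 139, a difference of 1.34, and RPS27 had 274 and 198. LOC103234934, 40S ribosomal protein S26-like, had 30.1 and 12.2. These are extremes: in 10 pairs of a placeholder locus and the gene with the matching symbol, the placeholder had the larger difference in 5 and the symbol in the other 5. LOC119621116, 40S ribosomal protein S28-like, differed by 0.06 where RPS28 differed by 0.88.

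Oxidative phosphorylation gave 16 genes, of which 14 lay above 0. On the higher side 6 passed 1.5-fold, or 37.5% against 15.3% of all genes and 22.3% of the 206. All 6 are among the 14 members under 1000 bases. Of all 102 genes of that length, 94 lay above 0 and 41 passed 1.5-fold, so the share is near that of short genes. The median difference was 0.51. Among genes of complex III, which passes electrons to cytochrome c, UQCRQ had 173 after trypsin, 107 after TrypLE and 130 in the control. UQCRH, the hinge protein of the same complex, had 43.1, 20.0 and 23.8, a difference of 1.07 within its replicate range of 1.13. UQCR10, also of complex III, had 111 and 116, so members of 1 complex did not share 1 difference. NDUFS6 of complex I had 69.5 and 39.6, with 65.0 in the control. The ATP synthase subunits ATP5MJ and ATP5MK had 217 and 81.2 after trypsin and 141 and 53.1 after TrypLE. The ATP5MK difference of 0.60 was within its replicate range of 0.67. ATP5IF1, the inhibitor of the ATP synthase, had 91.0 and 56.0. LOC119619672, described as cytochrome c oxidase subunit 7C, had 104 and 45.4 and a difference of 1.18 within its replicate range of 1.47.

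Some other mitochondrial genes lay on the same side. Those given here are under 1000 bases, and of the 102 genes of that length 94 lay above 0 and 41 passed 1.5-fold. ROMO1, a small mitochondrial membrane protein, had 147 after trypsin and 66.1 after TrypLE, with 81.9 in the control. MTLN, a mitochondrial microprotein, had 20.1 and 8.83, with 18.0 in the control. TOMM7 and TIMM8B, which belong to protein import into mitochondria, had 47.3 and 21.4 after trypsin and 24.0 and 12.5 after TrypLE. Their differences of 0.95 and 0.73 exceeded the replicate ranges at 0 h of 0.41 and 0.67. FMC1, an assembly factor of mitochondrial complex V, differed by 0.26, within its replicate range of 0.51.

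All 6 genes on the spliceosome and RNA processing list were higher after trypsin. Of these 3 passed 1.5-fold, or 50% against 15.3% of all genes and 22.3% of the 206. Their median length is 667.5 bases, and 41 of the 102 genes under 1000 bases passed 1.5-fold. SNRPF and SNRPE, core proteins of the spliceosomal particles, had 56.7 and 38.3 after trypsin and 32.3 and 23.7 after TrypLE. The control had 55.9 and 49.8. The SNRPE difference of 0.67 was within its replicate range at 0 h of 0.84. POLR2L, a small subunit shared by the nuclear RNA polymerases, had 227 and 145. SNRPD2 showed the smallest difference of the list, at 0.39. LOC119622745, described as thymosin beta-10, had 217 and 86.2, and TMSB10, which binds actin monomers, had 1270 and 754, with 1126 in the control. COPS9, a subunit of the COP9 signalosome, had 111 and 52.4.

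**Figure D3:**
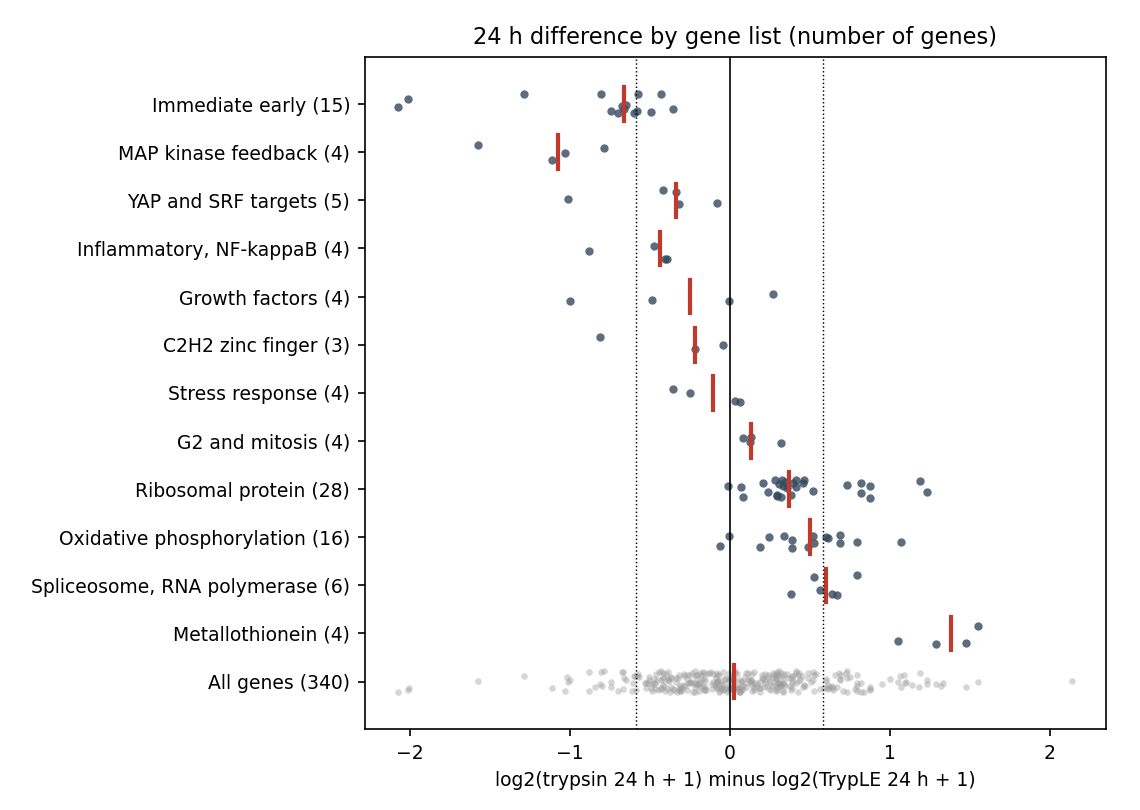
Each point is the 24 h difference of 1 gene on the x axis, log2(trypsin mean + 1) minus log2(TrypLE mean + 1), by gene list, with the number of genes in brackets. Red bars are medians and dotted lines mark 1.5-fold. The medians run from -1.07 for MAP kinase feedback to 1.38 for metallothionein, against 0.03 for all genes.

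Genes of mitosis differed little at 24 h. All 4 members were slightly higher after trypsin, with a median of 0.13 and 0 past 1.5-fold. MKI67, a marker of cycling cells, had 19.6 after trypsin and 15.5 after TrypLE, with 22.5 in the control, and PLK1, a mitotic kinase, had 27.8 and 26.3, with 61.7 in the control. CENPF, a kinetochore protein, had 18.3 and 16.6, where at 8 h it had 21.3 and 13.1. None of the 4 differences exceeded the replicate range at 0 h.

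The 24 h difference moved with gene length. All genes with a length are among the 206, of which 22.3% were higher and 9.22% lower past 1.5-fold, with a median of 0.25. Among 102 genes under 1000 bases, the median difference was 0.43, with 41 higher past 1.5-fold and 0 lower. Among 60 genes of 1000 to 3000 bases the median was -0.04, with 3 higher and 11 lower, and among 26 genes of 3000 to 6000 bases it was -0.40, with 1 higher and 8 lower. The 18 genes of over 6000 bases had a median of -0.13. Across the 206 genes with a length, Spearman's rho of the difference with length was -0.63 at 24 h, -0.01 at 8 h and 0.67 at 0 h. These values describe genes of the same libraries and are not replicates. In the shortest genes, medians were -0.86 at 0 h, 0.11 at 8 h and 0.43 at 24 h, so that trypsin was the lower group at 0 h and the higher group at 24 h. At 0 h, replicate 1 was the highest library of its group in most of the short genes looked at, after TrypLE and after trypsin alike. Replicate 1 thus raised their means at 0 h in both groups and widened their replicate range. In RPL38 the other TrypLE libraries, at 1805 and 1518, still lay above the highest trypsin library, at 830.

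**Figure D4:**
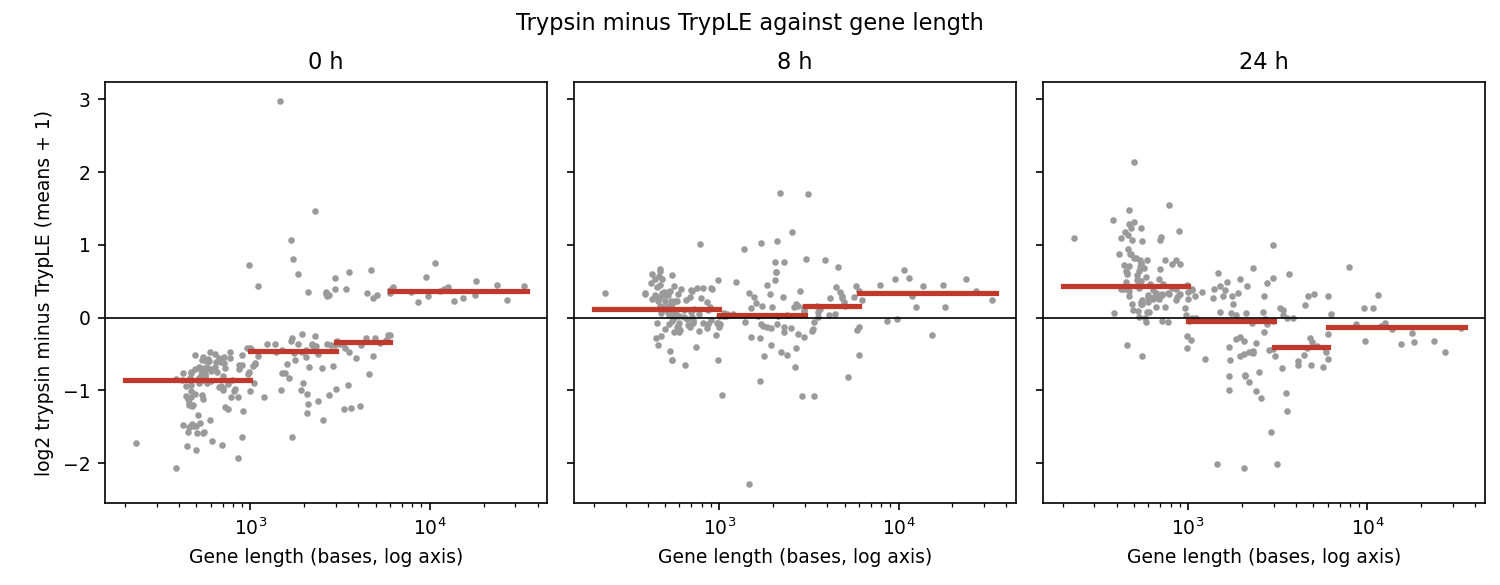
The difference between trypsin and TrypLE (y axis, log2 of means + 1) against gene length in bases (x axis, log scale) at 0, 8 and 24 h. Red bars are medians of 4 length classes. For genes under 1000 bases the median is -0.86 at 0 h, 0.11 at 8 h and 0.43 at 24 h.

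Short genes outside the ribosomal protein and oxidative phosphorylation lists and the groups formed from descriptions showed a like shift. There were 44 such genes under 1000 bases, with a median of 0.39. Of these 44, 17 were higher past 1.5-fold, where 22.3% of the 206 were. The lists match symbols, so the 44 still hold some ribosomal and respiratory genes. Examples are RPL36AL, LOC119619672 and LOC103233614, the last described as cytochrome b-c1 complex subunit 10. Ribosomal protein genes under 1000 bases had a median of 0.41, with 7 of 23 higher, and oxidative phosphorylation genes of that length one of 0.52, with 6 of 14 higher. The 4 metallothioneins, also under 1000 bases, had a median of 1.38. The immediate early and feedback genes span 1236 to 5672 bases and had a median of -0.70, whereas the other 56 genes within that span had a median of 0.03, with 4 higher and 5 lower. The part of gene length in these differences was not tested.

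Over all 340 genes, 42 were lower after trypsin past 1.5-fold at 0 h and higher past it at 24 h. They make up 36.5% of the 115 genes that were lower at 0 h, where 15.3% of all genes were higher at 24 h. They also make up 80.8% of the 52 genes that were higher at 24 h, where 33.8% of all genes were lower at 0 h. Of the 52, 46 are among the 206 genes that the authors listed for a difference at 0 h. Those 206 had a median of -0.67 at 0 h, so 33.8% is a low base for the 46. Another 10 genes were lower at both times. They were 8.7% of those lower at 0 h and 34.5% of those lower at 24 h, close to the 8.53% and 33.8% of all genes. Across genes, Spearman's rho between the 0 h and 24 h differences was -0.54 in the 206 genes of the authors' 0 h comparison and -0.05 in the 134 others. Between 8 h and 24 h it was 0.18 over all 340 genes.

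The 24 h means were also set beside the control. After trypsin 41 genes were higher than the control past 1.5-fold (12.1%) and 62 lower (18.2%), and after TrypLE 34 were higher (10%) and 53 lower (15.6%). Both comparisons use the same control samples. The median of the 4 MAP kinase feedback genes was -1.29 relative to the control after trypsin and -0.07 after TrypLE. For the 15 immediate early genes the medians were -0.48 and 0.12. For the 4 metallothioneins they were -0.11 after trypsin and -1.62 after TrypLE. Among the 19 immediate early and feedback genes, 11 were lower and 1 higher than the control past 1.5-fold after trypsin, and 1 was lower and 4 higher after TrypLE. Among the 28 ribosomal protein genes, 6 were higher and 0 lower than the control after trypsin, and 0 were higher and 1 lower after TrypLE, with medians of 0.20 and -0.22. The spliceosome and RNA processing genes had medians of -0.06 and -0.61.

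**Figure D5:**
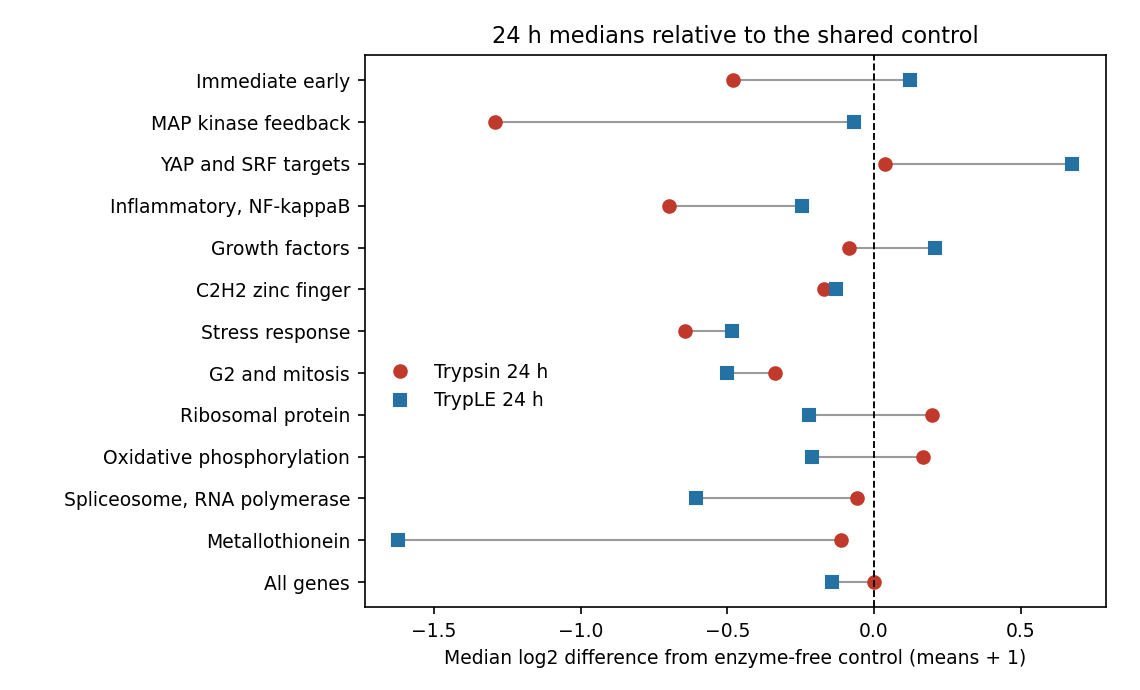
Median log2 difference from the enzyme-free control (x axis, means + 1) for each gene list, with trypsin 24 h as red circles and TrypLE 24 h as blue squares. Both rest on the same control mean. The feedback genes lie at -1.29 after trypsin and -0.07 after TrypLE, and the metallothioneins at -0.11 and -1.62.

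For the 134 genes outside the authors' 0 h comparison, the median was -0.15. Past 1.5-fold, 6 were higher (4.48%) and 10 lower (7.46%), against 46 (22.3%) and 19 (9.22%) of the 206 genes within it. Over all 340 genes the shares were 15.3% and 8.53%. The gap between the groups of genes was not tested.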

How the data were processed

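RNA from 30 Vero samples in 10 groups was sequenced, and group means of 7 groups were analysed. The 3 cold TrypLE groups, 9 samples, were not analysed here. HISAT2 2.0.5 and featureCounts 1.5.0-p3 are named in the submitters' processing notes, while genome build, annotation and filters are not given in the labels or headers. Scaffold positions are left out for that reason. The deposited table of means names no unit. For 206 genes found in both tables, the ratio of normalized count per kilobase to the 0 h mean was nearly constant, at 15.76 for trypsin and 15.72 for TrypLE (coefficients of variation 0.0143% and 0.00642%). The deposited means are therefore treated as FPKM. The library values at 0 h are a signal, read counts that the authors divided by a size factor per library. They were used for the range between replicates and the comparison of units above. They also gave the library values of EGR1 and RPL38 and the order of the replicates in short genes. That deposited table lists 1237 genes with an unadjusted p-value below 0.05 by the authors' test, and it gave the gene names, descriptions and lengths. The authors deposited log2 fold changes beside these p-values, and neither is reported here.

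Differences of log2(mean + 1) were computed with Python 3.11.15, pandas 2.3.3 and numpy 2.4.6, correlations with scipy 1.17.1, and no test was made. The calculation was run on simulated means without noise, which checks the arithmetic alone and not the calls. The limit of 1.5-fold, 29 gene lists and the naming rule were chosen with earlier results of these data known. Of the lists, 13 had no gene among the named genes, among them the lists for heat shock, sterol synthesis, S phase, interferon and histones. The 4 genes described as metallothioneins were absent from the list for oxidative stress, which matches symbols. The rule named 58 genes: the 12 highest and 12 lowest differences among named genes with a mean of at least 5 at 24 h, list members past 1.5-fold, and the extremes of lists with at least 3 genes. A placeholder name counted as a name. Other genes in the text, such as TMSB10, COPS9, HES1, RPL35, RPS27, LOC119621116, CENPF, ZNF217, LOC103233029 and LOC103219498, were chosen after their values were seen. A gene that the rule names is not reported here.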

Additional observations from a re-analysis of the deposited data

How the results depend on the processing

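No paired analysis was possible because the 24 h values are 1 mean per group, and for the same reason no replicate could be left out. With a pseudocount of 5 in place of 1, 17 genes were lower after trypsin past 1.5-fold, against 29, and 44 were higher, against 52. Among genes with a name, 19 were lower, 45 higher, and the median difference was 0.26 against 0.03 over all genes. In settings added after the data were seen, 32 genes were higher without the placeholder names (median -0.04), and 6 were higher and 10 lower without the genes of the 0 h comparison (median -0.15). A pseudocount of 0.1, minimum means of 1 or 5 and centring on the median left both counts within 1.5 times. No named gene changed direction with a pseudocount of 0.1 or 5 or with centring. With the pseudocount of 5, EGR2, NR4A1, EGR3, CSRNP1, KLF6, MCL1 and ATP5MK came under 1.5-fold, and centring did the same to ATP5MK.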

Other observations

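A gene that was not part of any list switched sides between times. LOC103219498, described by the authors as an RNA 3′-terminal phosphate cyclase-like protein, had a mean of 9.45 after trypsin and 0.327 after TrypLE at 0 h. At 8 h it had 0.309 after trypsin and 5.38 after TrypLE, and at 24 h 0.201 and 3.82, with 0.407 in the control. Its replicate range at 0 h was 1.90, the widest of the 206 genes, so single libraries of 1 group differed strongly. A second locus, LOC103244929, described as methionine adenosyltransferase 2 subunit beta, had 5.67 and 1.42 at 0 h, 1.54 and 1.78 at 8 h, and 3.54 and 1.83 at 24 h. Its 24 h difference of 0.68 was smaller than its replicate range at 0 h of 1.26.

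LOC103224057, described as thioredoxin interacting protein, which binds thioredoxin and limits glucose uptake, was above the control in both 24 h groups. It had 105 after trypsin and 51.9 after TrypLE, against 29.6 in the control, and it had been at 13.8 and 12.9 at 8 h. Its 24 h difference was 1.00, the highest among the genes with a known length over 1000 bases, and its replicate range at 0 h was 0.14.

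Among the 141 genes without a name, 7 were higher and 10 lower after trypsin past 1.5-fold at 24 h. Of all 340 genes, 15.3% were higher and 8.53% lower. The median difference of the 141 was -0.12. Gene 103241714 had 180 after trypsin and 104 after TrypLE, and gene 103247994 differed by 0.84. Gene 103234667 had 9.26 and 19.8, and gene 103214491 had 23.7 and 44.4.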
